A study of Mus musculus with 12 samples.

Results

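The genes described here encode plasma proteins of complement and coagulation that the liver makes and secretes. They were the 36 genes of a list of symbols, taken from the first column of the deposited expression table, and all 36 were found among its 16970 genes. Of these, 16 belong to complement and 20 to coagulation and fibrinolysis. The series measured liver RNA in 12 libraries, 3 in each of 4 groups, from mice with cholestasis, in which bile does not leave the liver normally, to ask what the bile acid hyodeoxycholic acid (HDCA) changes in gene expression. In the BDL group the bile duct was ligated for 7 days. The BDL_H group had the same ligation and was given HDCA at 100 mg/kg for 4 days, starting 3 days after surgery. The MDR and MDR_H groups were taken as the Abcb4-/- mice that the series description names, which lack the transporter that carries phosphatidylcholine into bile. The description puts the age of the Abcb4-/- mice at the start at 60 days, which was taken for both groups. MDR_H received HDCA at 100 mg/kg for 21 days. An age at collection was not among the values taken from the description. No library title or label names Abcb4, and livers of unoperated or wild-type mice were not analysed here, so no value is set against a healthy liver.

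Complement is a chain of plasma proteases that begins with antibody-bound C1 (the classical pathway), with lectins that bind microbial sugars (the lectin pathway) or with spontaneous cleavage of C3 (the alternative pathway), and ends in a pore of terminal components. Coagulation is a chain of proteases that ends in thrombin, which turns fibrinogen into fibrin, and plasmin later dissolves the fibrin. Hepatocytes are the main source of nearly all these proteins, several clotting factors need vitamin K for their activation, and vitamin K uptake from the gut needs bile. Several members, among them C3, Serping1 and the fibrinogen chains, are known as acute phase genes that respond to inflammatory cytokines.

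The depth behind the values was 34260782 to 40427855 recovered reads per library, and no member had fewer than 1743 reads in any library. No label states that the 3 libraries of a group are from 3 mice, so a p-value here reflects library spread, which may be technical. Hepatocyte markers, summed over 12 genes, were between 39200 and 64487 FPKM (fragments scaled to gene length and library size) in all 12 libraries. Abcb4 itself read 52.8, 152 and 168 FPKM in BDL, 160.5, 72.1 and 178 in BDL_H, 181, 150.1 and 162 in MDR and 165, 155 and 129 in MDR_H. Its level thus does not mark the groups taken as Abcb4-/-, and whether the allele is disrupted in them was not tested. BDL replicate 1 and BDL_H replicate 2 stood apart, with a median log2(FPKM + 1) over all genes tested of 2.49 and 2.56 against 2.81 to 3.06 in the other 10 libraries. The summed FPKM of 4 Y-linked genes was 16.1 to 20.2 in the 6 BDL-model libraries and in MDR replicate 1, and at most 0.016 in the other 5 libraries. In a comparison of the models, the model and, apart from MDR replicate 1, the Y-linked reads therefore cannot be told apart, and the age of the ligated mice is not stated.

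The 3 fibrinogen genes and C3 are shown first by the 150 bases before their RefSeq start, since they were the most abundant members and several of the results turn on them. In the fibrinogen sequences, capitals mark CTGGGA, the core of an element through which interleukin-6 acts. In the C3 sequence they mark TTNNGNAA, the form bound by C/EBP factors. Sequences are RefSeq's for build GRCm38.p6, 5′ to 3′ on the strand of the gene: Fga on chromosome 3 at 83026003 to 83026152 (plus strand), Fgb on chromosome 3 at 83049864 to 83050013 (minus strand), Fgg on chromosome 3 at 83007574 to 83007723 (plus strand) and C3 on chromosome 17 at 57228137 to 57228286 (minus strand).
Fga: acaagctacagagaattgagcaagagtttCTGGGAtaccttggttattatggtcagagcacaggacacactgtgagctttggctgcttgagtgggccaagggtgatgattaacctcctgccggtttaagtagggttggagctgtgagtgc
Fgb: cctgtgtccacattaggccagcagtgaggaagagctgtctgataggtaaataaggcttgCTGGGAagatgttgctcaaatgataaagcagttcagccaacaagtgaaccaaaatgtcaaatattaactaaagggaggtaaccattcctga
Fgg: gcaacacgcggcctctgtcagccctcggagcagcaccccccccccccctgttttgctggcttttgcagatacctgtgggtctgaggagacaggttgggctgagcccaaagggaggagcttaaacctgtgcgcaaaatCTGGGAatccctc
C3: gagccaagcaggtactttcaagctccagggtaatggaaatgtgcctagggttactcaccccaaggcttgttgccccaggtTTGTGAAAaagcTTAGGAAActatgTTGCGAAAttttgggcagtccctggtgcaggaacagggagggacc
Every first base is counted back from the start as -1. CTGGGA began at -121 in Fga, -91 in Fgb and -13 in Fgg. In C3, TTNNGNAA began at -70, -58 and -45 on the strand of the gene. RefSeq promoters were matched for 27 of the 36 members. Searched on both strands, CTGGGA occurred in 9 of these 27 (33.3%), against 17.7% of the 32851 promoter sequences of the same length. A member was counted if any of its promoter sequences matched, while the share over all is of single sequences. A gene with several promoters had more chances to match, so the shares are of unlike units. TTNNGNAA occurred in 9 (33.3%), against 22.7%. GTTAAT, part of the site of the hepatocyte factor HNF1, occurred in 5 of the 27 (18.5%), in C8a, F13b, Fga, Fgb and Hc, against 3.7%. In these 4 promoters no match of one motif overlapped that of another. A match describes letters and not a bound site.

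The members spanned more than 2 orders of size in level per gene length. By mean FPKM over the 12 libraries the highest were Fgb (3927), C3 (3517), Fga (2560.0), Fgg (2404) and Serpinc1 (1127), and the lowest were Masp1 (20.1), F11 (24.8) and Pros1 (28.4). Together the 36 genes held 5.98, 5.62 and 5.05% of all FPKM in BDL, 4.38, 6.89 and 4.63% in BDL_H, 3.73, 3.40 and 3.68% in MDR and 3.31, 4.26 and 4.06% in MDR_H. The 6 libraries of the BDL model were thus all above the 6 of the MDR groups, and the highest, BDL_H replicate 2, was high through fibrinogen, whose 3 chains took 4.30% of all FPKM there and 1.58 and 1.61% in the other BDL_H libraries. The complement members took 1.75% ± 0.09 (SD, n = 3) in BDL, 1.56% ± 0.14 in BDL_H, 1.22% ± 0.05 in MDR and 1.29% ± 0.16 in MDR_H. Within groups the members had a median SD of log2(FPKM + 1) of 0.19 against 0.21 over all 10805 genes tested, a scale that understates the spread of low genes. Serpinf2 (0.07) and Serpinc1 (0.09) varied least and C6 (0.78) and Fga (0.51) most.

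**Figure D1:**
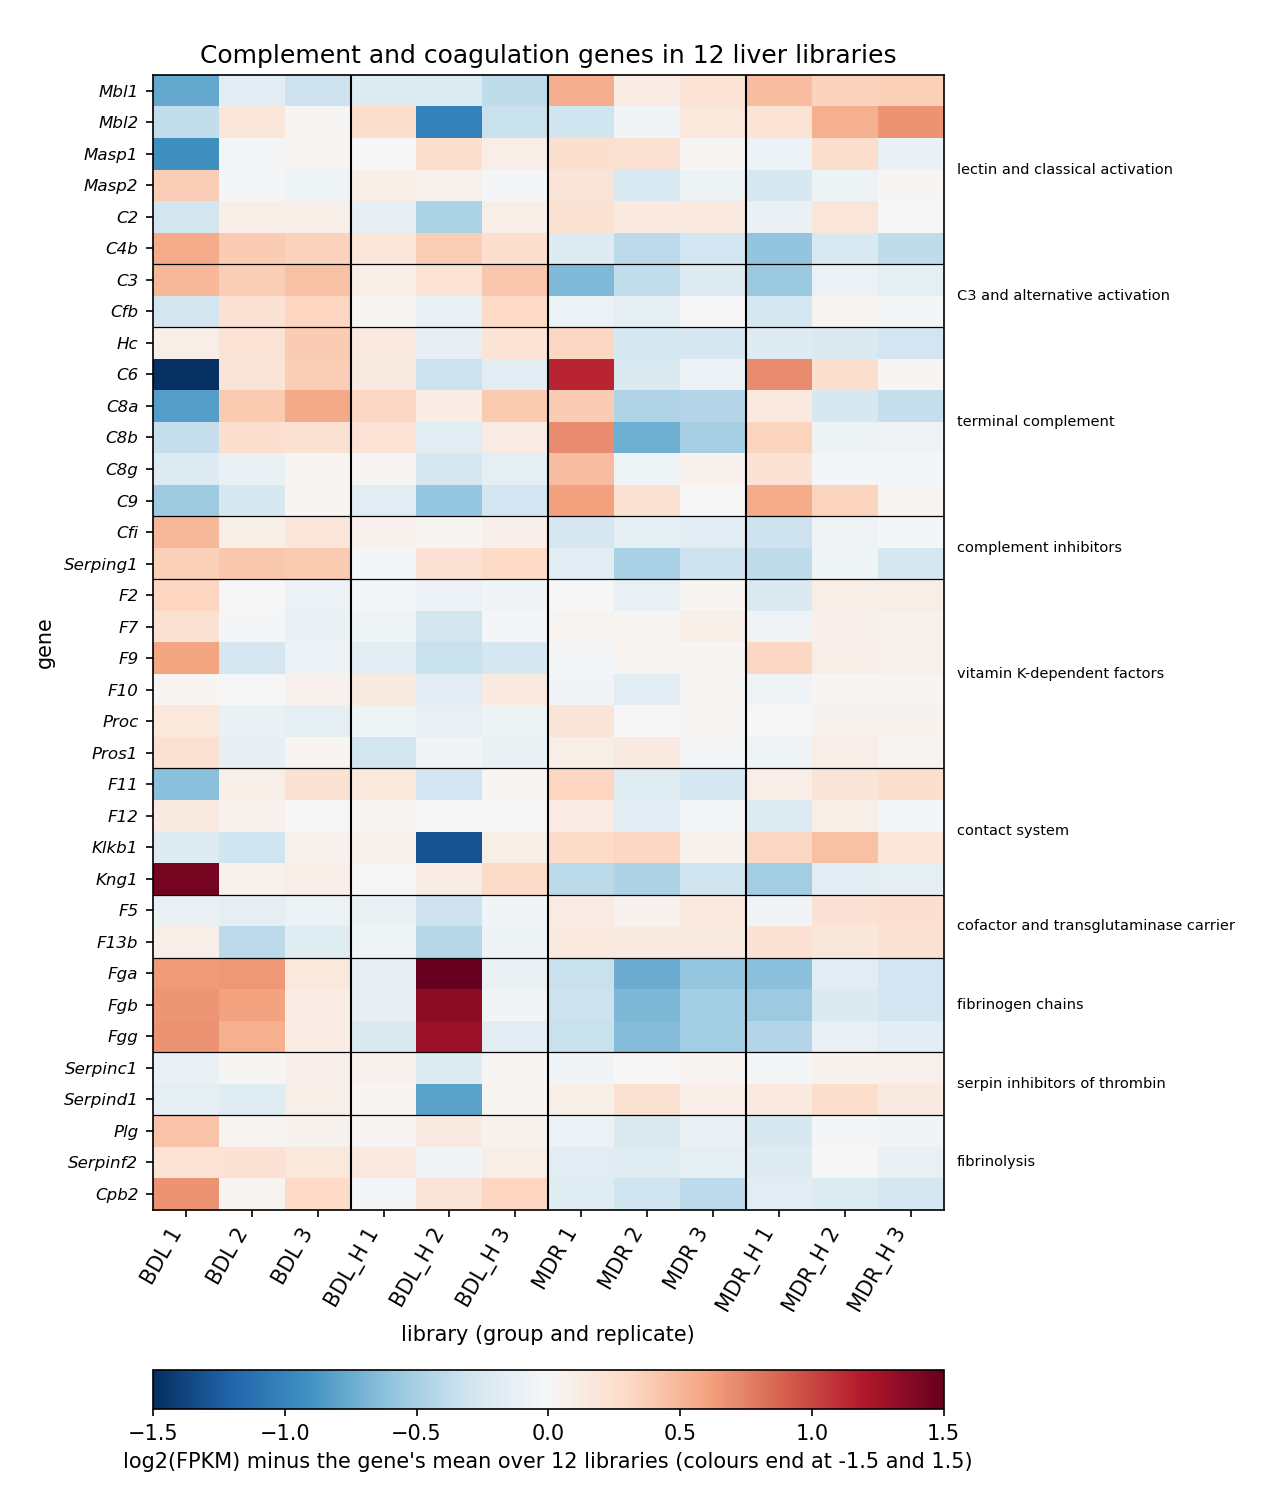
Level of each of the 36 genes in each of the 12 libraries, as log2(FPKM) minus the gene's mean over the 12 libraries (red above, blue below), with genes ordered by role and libraries by group and replicate. C4b, C3, Serping1 and Cpb2 are higher in the 6 libraries at the left than in the 6 at the right, and single libraries stand out for the fibrinogen chains (BDL_H 2), Kng1 and C6 (BDL 1).

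The first comparison set untreated MDR livers against untreated BDL livers. In it 7 of the 36 members passed the test (19.4%; limma, adjusted p under 0.05), against 16.2% of all 10805 genes tested. Of the members, 6 were lower in MDR (16.7%, against 1.07% of all genes lower) and 1 was higher (2.78%, against 15.1% higher). C4b, C3, Serping1, Cpb2, Cfi and Serpinf2 fell and Mbl1 rose. Members and all genes called were 4 and 1151 without BDL replicate 1, and 3 and 489 without MDR replicate 2. They were 4 and 688 without MDR replicate 3, and 10 and 2346 without BDL_H replicate 2, whose spread enters the fit. The count of members thus moved with that of all genes. The median log2 difference was -0.10 over the members and 0.25 over all genes, and 30 of the 36 members lay below that all-gene median. At an unadjusted p under 0.05 there were 13 members (36.1%, against 34.3% of all genes). In whole liver, fewer cells of a type and less RNA per cell cannot be told apart.

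Of the lectin and classical activation genes, C4b, a component cleaved in both pathways (chromosome 17, 34728139 to 34743902 on GRCm38), had the smallest p of all members. It read 431, 381 and 372 FPKM in BDL, 333, 377 and 350.1 in BDL_H, 255, 223 and 239 in MDR and 194, 249 and 226 in MDR_H. The 6 libraries of the MDR groups were all below the 6 of the BDL model. C4b was 39.4% lower in MDR than in BDL, a difference of -0.72 ± 0.13 (SE) in log2(FPKM + 1) (limma adjusted p = 0.00575), and -0.67 ± 0.13 in MDR_H against BDL_H (adjusted p = 0.015). It passed the test in both comparisons under all 23 alternative settings tried. C4b has a near-identical copy, C4a, which the table used here does not hold, so reads of either may be counted under C4b.

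Mbl1 and Mbl2 encode the mannose-binding lectins A and C, which recognise sugars on microbes and activate the MASP proteases. Mbl1 (chromosome 14, 41151456 to 41163904) read 25.2, 38.2 and 34.9 FPKM in BDL, 37.7, 37.5 and 33.2 in BDL_H, 62.6, 46.4 and 49.8 in MDR and 59.2, 54.7 and 55.2 in MDR_H, with every MDR and MDR_H library above every library of the BDL model. It was 61.5% higher in MDR than in BDL (0.68 ± 0.16, SE; limma adjusted p = 0.0181) and 56.0% higher in MDR_H than in BDL_H (0.63 ± 0.16; adjusted p = 0.0391; the call ended under 10 of the 23 alternatives). The untreated call ended without MDR replicate 1 (0.56, adjusted p = 0.0528), with quantile normalization (0.48, adjusted p = 0.0684), with median-of-ratios scaling (0.37, adjusted p = 0.176) and with the 6 untreated libraries alone. Mbl2 read 165, 243 and 217 FPKM in BDL, 257, 106 and 170.0 in BDL_H, 174, 207 and 239 in MDR and 246, 308 and 342 in MDR_H. Untreated groups overlapped (-0.00 ± 0.28). Treated groups overlapped too, through BDL_H replicate 1, and the difference there was 0.82 ± 0.28 (adjusted p = 0.0871).

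Masp1 and Masp2, the proteases that the lectins activate, did not pass the test. Masp1 was at 16.7 ± 5.47 FPKM (SD, n = 3) in BDL and 22.1 ± 1.79 in MDR (adjusted p = 0.167), with BDL replicate 1 the lowest library at 10.4. Masp2 was at 68.4 ± 11.8 and 62.2 ± 9.28, and its exons overlap those of Tardbp on the other strand. C2, the protease that pairs with C4b in the C3 convertase, was at 47.6 ± 6.76 and 54.4 ± 1.91 (adjusted p = 0.365), with no overlap. C2 lies 87 bases from Cfb on chromosome 17.

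C3, the protein on which the 3 pathways meet (chromosome 17, 57203967 to 57228136), read 4789, 4403 and 4613 FPKM in BDL, 3617, 3931 and 4515 in BDL_H, 2140.5, 2638 and 2977 in MDR and 2319.8, 3205 and 3060.3 in MDR_H. Each MDR and MDR_H library was below each library of the BDL model. C3 was 43.8% lower in MDR than in BDL (-0.84 ± 0.18, SE; limma adjusted p = 0.0124). Of the 23 alternatives, quantile normalization alone ended this call (adjusted p = 0.0552). In MDR_H against BDL_H the difference was -0.50 ± 0.18 (adjusted p = 0.0997), and the change from the untreated difference was not called (-0.34 ± 0.25 as BDL minus MDR effect of HDCA; limma adjusted p = 1.00). Cfb, factor B, which forms the alternative convertase with C3, was at 666 ± 138 FPKM (SD, n = 3) in BDL and 586 ± 26.9 in MDR, and its groups overlapped (adjusted p = 0.506).

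Both inhibitors of complement on the list were lower in MDR. Serping1, the C1 inhibitor, which also blocks factor XIIa and kallikrein (chromosome 2, 84765360 to 84775444), read 685, 706 and 701 FPKM in BDL, 527, 620.0 and 656 in BDL_H, 478, 382 and 429 in MDR and 410.3, 512 and 445 in MDR_H. The MDR libraries were all below the BDL libraries, with a mean 38.4% lower (-0.70 ± 0.14, SE; limma adjusted p = 0.0088). Leaving out MDR replicate 2 ended this call (-0.62, with an adjusted p that rounds to 0.05). Cfi, factor I, which cleaves C3b and C4b (chromosome 3, 129836727 to 129875332), read 527, 395 and 423 FPKM in BDL, 389, 384 and 392 in BDL_H, 313, 338 and 329.8 in MDR and 300.1, 358 and 367 in MDR_H. Here too the untreated groups did not overlap, and MDR was 27.1% lower (-0.44 ± 0.13; adjusted p = 0.0446). That call is close to the threshold: it ended without any one of the 6 untreated libraries, with an adjusted p of 0.108, 0.0516 and 0.0599 without BDL replicate 1, 2 and 3 and of 0.104, 0.118 and 0.107 without MDR replicate 1, 2 and 3. In the treated comparison Serping1 differed by -0.40 ± 0.14 (adjusted p = 0.0902) and Cfi by -0.19 ± 0.13 (adjusted p = 0.371).

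The terminal complement genes moved with single libraries more than with groups. They encode C5 (Hc), C6, the 3 chains of C8 and C9, which assemble into the membrane attack complex, and none passed the test between the models. C6 read 23.0, 107 and 120.4 FPKM in BDL, 102, 74.3 and 83.4 in BDL_H, 206, 80.2 and 87.4 in MDR and 152, 111 and 94.0 in MDR_H. The lowest value stood in BDL replicate 1 and the highest in MDR replicate 1, and all groups overlapped (MDR against BDL 0.75 ± 0.54, SE; limma adjusted p = 0.334; -0.00 without BDL replicate 1). C8b read 144, 218 and 215 FPKM in BDL, 210.5, 163 and 199 in BDL_H, 299, 110.2 and 129.9 in MDR and 231, 174 and 177 in MDR_H, and MDR replicate 1 was again the highest library and its 2 group mates the lowest of all 12. C8a read 147, 342 and 388 FPKM in BDL, 324, 282 and 342 in BDL_H, 341, 191 and 192 in MDR and 288, 220.3 and 206 in MDR_H. Its lowest library was BDL replicate 1, and the 2 MDR libraries without Y-linked reads came next.

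Over the 6 terminal genes the deviations of libraries from their group means correlated at a median of 0.83 between genes (0.71 to 0.99, n = 12 libraries that share depth and composition), against -0.05 with the other members. The summed share of FPKM was 0.331% in MDR replicate 1 and 0.195% in both other MDR libraries, and 0.158% in BDL replicate 1 against 0.250 and 0.282% in its group mates. MDR replicate 1 was the one library of the MDR groups with Y-linked reads. It also had 249 FPKM of Elovl3 and 125.0 of Cyp4a12a, genes known to be higher in male mouse liver. Elovl3 was at 3.49 and 5.03 in MDR replicates 2 and 3. BDL replicate 1, which has Y-linked reads, had 1.42 FPKM of Elovl3 and 6.58 of Cyp4a12a. In the other BDL and BDL_H libraries, all with Y-linked reads, Elovl3 was at 16.7 to 50.8. In MDR_H replicate 1, without Y-linked reads, Elovl3 stood at 31.9 FPKM and C6 at 152, both the highest of that group. The part of these differences in the terminal genes was not tested. Without MDR replicate 1, Hc was called lower in MDR (-0.48, adjusted p = 0.0496), and C8b was at -0.66 (adjusted p = 0.0702). With BDL replicate 1, BDL_H replicate 2 and MDR replicate 1 all left out, a choice made after seeing the data, Hc (-0.55, adjusted p = 0.00691), C8a (-0.93, adjusted p = 0.00456) and C8b (-0.85, adjusted p = 0.00556) were called lower and C6 was at -0.43 (adjusted p = 0.153). C8g (93.2 ± 7.91 FPKM in BDL and 111 ± 21.8 in MDR, SD, n = 3) and C9 (197 ± 39.1 and 284 ± 62.3; adjusted p = 0.1) had higher means in MDR and were not called.

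**Figure D2:**
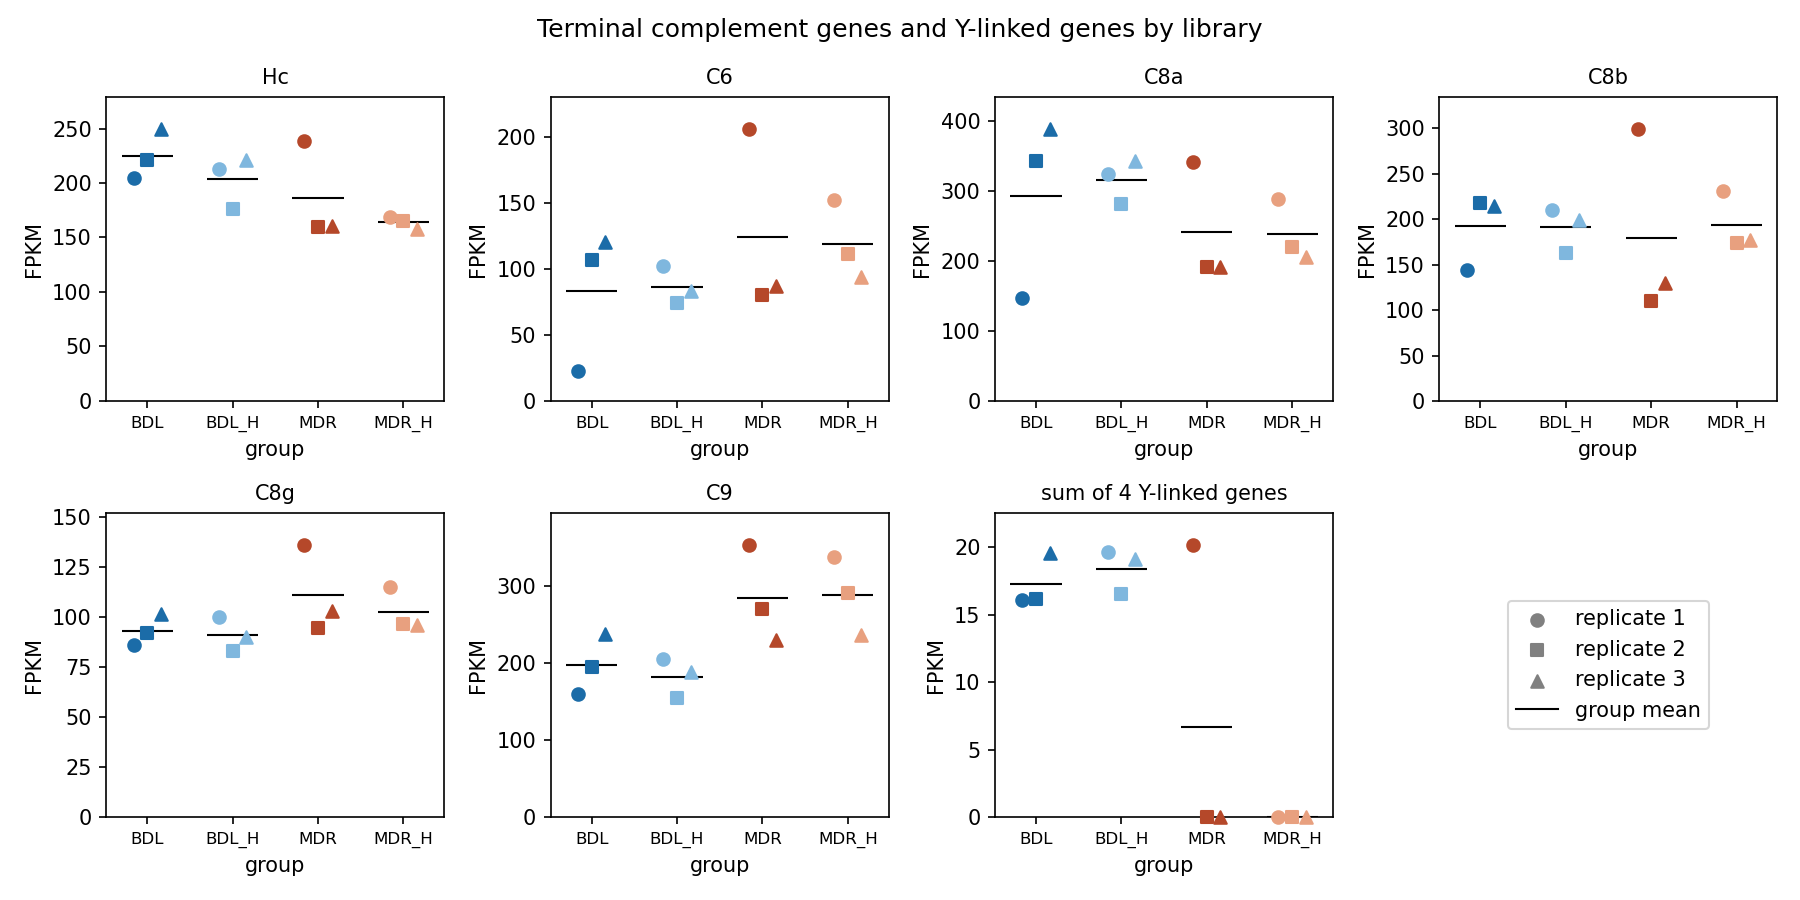
FPKM of the 6 terminal complement genes and the summed FPKM of Eif2s3y, Kdm5d, Uty and Ddx3y (all Y-linked) by group, with 1 point per library (symbols give the replicate) and a line at each group mean. MDR replicate 1 is the highest MDR library in every panel, and it alone of the MDR and MDR_H libraries has a Y-linked sum above 0.016 FPKM.

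None of the 6 vitamin K-dependent factors was called between the models. Prothrombin (F2) read 937, 747 and 709 FPKM in BDL, 744, 709.9 and 732 in BDL_H, 755, 699 and 767 in MDR and 649, 801 and 807 in MDR_H, and apart from a high BDL replicate 1 the groups overlapped (MDR against BDL -0.10 ± 0.14, SE). F7, which starts clotting with tissue factor, had a difference of 0.03 ± 0.12 with a 95% interval of -0.23 to 0.28. F10, the protease that makes thrombin, had one of -0.10 ± 0.11 (-0.35 to 0.15). For F9, the factor lacking in haemophilia B, it was -0.07 ± 0.18 (-0.47 to 0.34). The anticoagulants protein C (Proc) and protein S (Pros1) were at 0.10 ± 0.11 (-0.15 to 0.35) and 0.02 ± 0.12 (-0.24 to 0.27). The smallest adjusted p was that of F10 in the untreated one (0.538) and of F9 in the treated one (0.40 ± 0.18, 0.177), where the 3 MDR_H libraries of F9 were above the 3 of BDL_H. F7 and F10 are neighbours on chromosome 8, 1498 bases apart, and their deviations correlated at 0.57.

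Of the contact system, which starts clotting on surfaces and releases bradykinin, no gene passed the test. Kng1, the kininogen from which bradykinin is cut (chromosome 16, 23058220 to 23082078), read 2364, 919 and 939.9 FPKM in BDL, 871, 946 and 1071 in BDL_H, 664, 634 and 714 in MDR and 611, 781 and 799 in MDR_H. BDL replicate 1 was the highest of all 12 libraries, yet the untreated groups did not overlap without it either, with 919 and 940 in BDL against at most 714 in MDR. The difference was -0.92 ± 0.30 (SE; limma adjusted p = 0.0579), and -0.47 without BDL replicate 1 (adjusted p = 0.0680). Leaving out BDL replicate 3 instead gave -1.14 and a call (adjusted p = 0.0373). Kng1 is close in sequence to its neighbour Kng2, so reads may be split between them. Klkb1, plasma prekallikrein, read 41.2, 38.3 and 49.2 FPKM in BDL, 49.2, 19.2 and 50.6 in BDL_H, 57.6, 58.4 and 49.0 in MDR and 58.7, 64.1 and 53.5 in MDR_H, lowest by far in BDL_H replicate 2, and was not called in either comparison (MDR_H against BDL_H 0.67 ± 0.29, adjusted p = 0.157). F11 and F12, the proteases that link contact to clotting, differed by 0.06 ± 0.21 and -0.09 ± 0.12 in MDR against BDL.

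F5, the cofactor of F10, and F13b, the carrier of the enzyme that cross-links fibrin, had higher means in MDR and did not pass the test. F5 read 85.8, 84.1 and 86.9 FPKM in BDL, 86.3, 74.5 and 89.8 in BDL_H, 101, 95.8 and 103 in MDR and 89.3, 107 and 109 in MDR_H, and F13b 84.0, 59.7 and 68.9 FPKM in BDL, 75.0, 58.0 and 74.4 in BDL_H, 86.7, 86.0 and 85.7 in MDR and 91.1, 88.2 and 91.5 in MDR_H. For both the untreated groups did not overlap. F5 differed by 0.22 ± 0.11 (SE; limma adjusted p = 0.196) and F13b by 0.29 ± 0.14 (adjusted p = 0.164), near the all-gene median of 0.25 in that comparison.

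The 3 fibrinogen genes, adjacent on chromosome 3, varied together from library to library. Fga (chromosome 3, 83026153 to 83033627) read 3593, 3622 and 2567 FPKM in BDL, 2111, 6512 and 2152 in BDL_H, 1828, 1375 and 1543 in MDR and 1488, 2044 and 1886 in MDR_H. Fgb (chromosome 3, 83042246 to 83049863) read 5706, 5469.7 and 3880.2 FPKM in BDL, 3312, 9142 and 3490.0 in BDL_H, 2883, 2249 and 2502 in MDR and 2454, 3086 and 2953 in MDR_H. Fgg (chromosome 3, 83007724 to 83015056) read 3541, 3205 and 2404 FPKM in BDL, 1909, 5426 and 1965 in BDL_H, 1756, 1411 and 1551 in MDR and 1631, 2054 and 1988 in MDR_H. In each chain the 3 MDR libraries lay below the 3 BDL libraries, and BDL_H replicate 2 was the highest of all 12. The ratio of Fgb to Fga kept between 1.40 and 1.65 over the 12 libraries, while Fga itself spanned a 4.74-fold range. Deviations from group means correlated at 0.995 to 0.998 between chains, and at 0.993 to 0.995 without BDL replicate 1 and BDL_H replicate 2. They ran against those of Serpind1 (-0.93 to -0.94) and Klkb1 (-0.91 to -0.92), which had their lowest values in BDL_H replicate 2. All these are descriptions over 12 libraries that share depth and composition.

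Fibrinogen did not pass the test between the models. In MDR against BDL, Fga was at -1.03 ± 0.37 (SE; limma adjusted p = 0.0748), Fgb at -0.97 ± 0.34 (adjusted p = 0.0693) and Fgg at -0.94 ± 0.34 (adjusted p = 0.0783), which is 51.5%, 49.3% and 48.4% below BDL by mean FPKM. The spread in this test is shared by all 4 groups, and BDL_H replicate 2 is not among the libraries compared. Without it the adjusted p values were 0.00666, 0.00808 and 0.00714. The 6 untreated libraries taken alone also called all 3 chains. In BDL_H replicate 2 the acute phase genes Saa1, Saa2 and Lcn2 were likewise the highest of the 12 libraries (4833, 7733 and 3313 FPKM). Hp, Serpina3n and Serpina3m were also highest there (9282, 3015 and 1305 FPKM). Other acute phase genes were highest elsewhere, among them Saa3 and Orm2 in BDL_H replicate 3 (161 and 852 FPKM). Apcs, Itih3 and Itih4 were highest in BDL replicate 1 (734, 1430 and 1383 FPKM). The part of acute phase genes in the fibrinogen level was not tested.

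**Figure D3:**
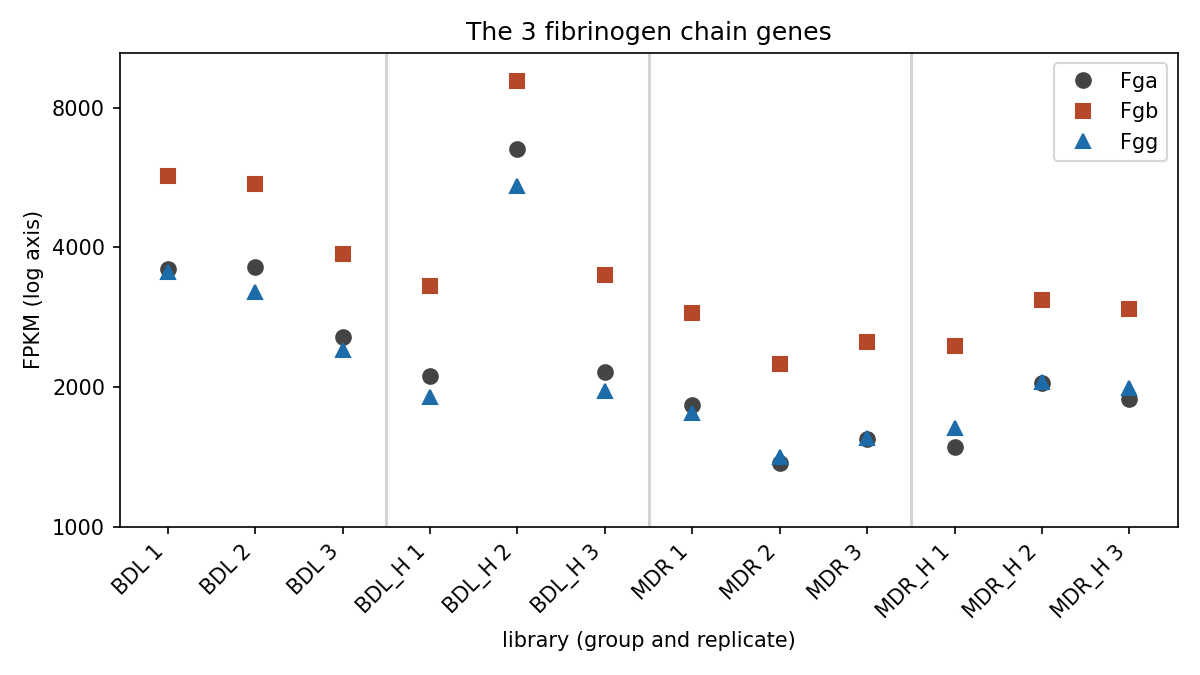
FPKM of the 3 fibrinogen chain genes (log axis) in each of the 12 libraries, by group and replicate. Fgb is the highest chain in each library and the 3 chains go up and down together, BDL_H 2 is the highest library for all 3, and the MDR libraries lie below the BDL libraries.

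Neither serpin that inhibits thrombin was called. Antithrombin (Serpinc1) read 1049.8, 1140.5 and 1189.6 FPKM in BDL, 1180.1, 987 and 1139.6 in BDL_H, 1092, 1133 and 1162 in MDR and 1100.1, 1172 and 1181 in MDR_H, with overlap of all groups and a difference of 0.01 ± 0.12 (SE; 95% interval -0.26 to 0.27) in MDR against BDL. Heparin cofactor II (Serpind1) differed by 0.21 ± 0.20 (adjusted p = 0.446). The 3 genes of fibrinolysis pointed lower in MDR and 2 of them were called. Cpb2, which encodes the carboxypeptidase that protects fibrin from plasmin (chromosome 14, 75242287 to 75283555), read 528, 342 and 409 FPKM in BDL, 326, 379 and 415 in BDL_H, 292, 270.3 and 253 in MDR and 294, 288 and 275 in MDR_H. No MDR library reached the BDL libraries, and MDR was 36.3% lower (-0.63 ± 0.16; adjusted p = 0.0246). Its adjusted p was above 0.05 when BDL replicate 1 (-0.46, adjusted p = 0.0545), MDR replicate 2 (adjusted p = 0.0893) or MDR replicate 3 (adjusted p = 0.0868) was left out, and with the 6 untreated libraries alone.

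Serpinf2, alpha-2-antiplasmin, the inhibitor of plasmin (chromosome 11, 75431736 to 75439501), read 528, 533 and 513 FPKM in BDL, 509, 444 and 486 in BDL_H, 412, 403 and 418 in MDR and 401, 458 and 425 in MDR_H. The groups did not overlap, since the spread within them was small, and MDR was 21.7% lower (-0.35 ± 0.11, SE; limma adjusted p = 0.0469). Serpinf2 lost its call without any one of the 6 untreated libraries (adjusted p = 0.0742, 0.108 and 0.0731 without BDL replicate 1, 2 and 3, and 0.0923, 0.157 and 0.110 without MDR replicate 1, 2 and 3). Plg, plasminogen, read 1299.9, 995 and 1006 FPKM in BDL, 978, 1061 and 1005 in BDL_H, 911, 835 and 897 in MDR and 822, 959 and 940.2 in MDR_H, with no overlap between BDL and MDR, and was not called (-0.31 ± 0.14; adjusted p = 0.134). Its exons overlap those of Slc22a3 on the other strand, as those of Serpinc1 do with Zbtb37 and those of C2 with Zbtb12. Whether counting used strand is not given in the sources used here. On the same strand, exons of C2 and Cfb overlap those of Gm20547, and exons of Klkb1 overlap those of Gm45753. Neither Gm gene has a value here.

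Counting libraries that do not overlap, 15 of 36 members were separated between MDR and BDL (41.7%, against 42.3% of all genes), 11 of them lower in MDR (30.6%, against 3.12% lower) and 4 higher (11.1%, against 39.2%). Between MDR_H and BDL_H, 17 members were separated (47.2%, against 36.9%), 10 lower (27.8%, against 4.55%) and 7 higher (19.4%, against 32.4%). In that treated comparison 2 members passed the test (5.56%, against 8.29% of all genes), C4b lower (2.78%, against 0.935% lower) and Mbl1 higher (2.78%, against 7.36% higher). At an unadjusted p under 0.05 there were 11 (30.6%, against 28.3%). The share of lower calls depends on the scaling of the libraries. With median-of-ratios scaling the all-gene median in MDR against BDL moved from 0.25 to -0.01, the split of called genes from 1630 higher and 116 lower to 671 and 381, and that of members from 1 and 6 to 0 and 7. Quantile normalization gave 548 and 393 genes and 0 and 4 members.

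**Figure D4:**
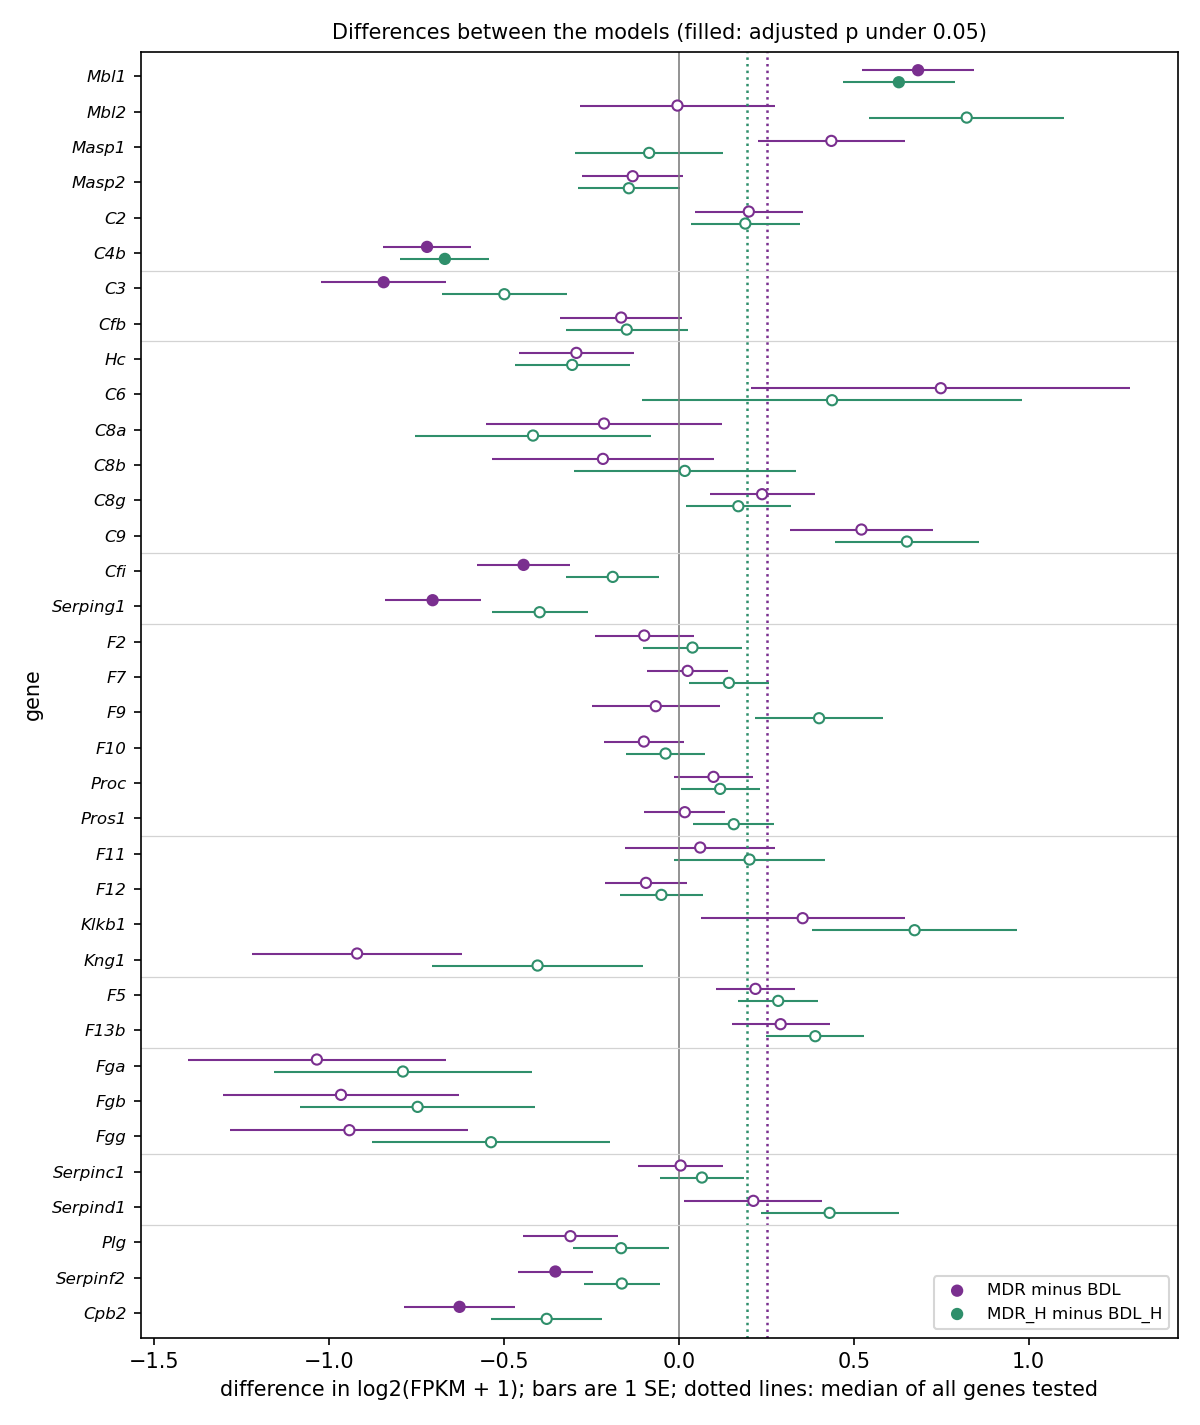
Difference in log2(FPKM + 1) for each of the 36 genes between the models, untreated (MDR minus BDL, purple) and with HDCA (MDR_H minus BDL_H, green), with bars of 1 SE, filled points at an adjusted p under 0.05 and dotted lines at the median of all genes tested (0.25 and 0.20). The 6 filled points left of 0 in purple are C4b, C3, Cfi, Serping1, Serpinf2 and Cpb2, and C4b and Mbl1 are filled in both comparisons.

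Other genes of the 2 systems, many of them made outside hepatocytes, were called in both directions in MDR against BDL. Of 30 other complement genes tested, 7 rose and 1 fell, with a median log2 difference of 0.27. Over all genes tested, 15.1% were called higher and 1.07% lower, with a median of 0.25. The collectins Colec10 (1.89 ± 0.19, SE; limma adjusted p = 0.000824) and Colec11 (1.87 ± 0.23), the terminal component C7 (1.69 ± 0.20) and the C1q chain C1qa, also a macrophage marker (0.97 ± 0.24) rose, and C4bp, a hepatocyte inhibitor that binds C4b, fell (-0.45 ± 0.12; adjusted p = 0.0305). Of 33 other coagulation and fibrinolysis genes, 8 rose and 3 fell (median 0.18). With 1 library left out, the number that rose ranged from 4 (without MDR replicate 2) to 9 for complement and from 3 (without MDR replicate 2 or 3) to 9 for coagulation (5 without BDL replicate 1, 4 without BDL replicate 2). In MDR_H against BDL_H, 6 rose and 1 fell for complement, and 2 rose and 3 fell for coagulation. Of all genes, 7.36% were called higher there and 0.935% lower. The plasminogen activator Plat (1.92 ± 0.26) and von Willebrand factor (Vwf, 1.18 ± 0.21) were among those that rose. Fgl1, a secreted fibrinogen-like hepatocyte protein, fell (-2.16 ± 0.38, SE; limma adjusted p = 0.00595), and its difference in MDR_H against BDL_H was -1.41 ± 0.38 (adjusted p = 0.0466). The vitamin K cycle genes Ggcx and Vkorc1 were at 8.31 ± 1.76 and 171 ± 31.0 FPKM in BDL and 11.7 ± 1.23 and 168 ± 3.23 in MDR (adjusted p = 0.092 and 0.96).

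Markers of other cell types also differed between the models, unevenly by list. Over all genes tested, 15.1% were called higher in MDR than in BDL and 1.07% lower. Of 12 Kupffer cell and macrophage markers, 9 pointed higher and 3 lower, and the share called higher was near that of all genes. Summed FPKM ranged from 36.1 to 165.6 in BDL and 188 to 242 in MDR for 10 endothelial markers (5 called higher), from 61.5 to 126 and 228 to 451 for 10 stellate and fibroblast markers (8 called higher), and from 381 to 835 and 960 to 1886 for 12 Kupffer cell and macrophage markers (2 called higher). For 10 cholangiocyte markers the sum ranged from 121 to 416 in BDL and 339 to 524 in MDR, and of the 8 tested 4 were called higher. For 9 neutrophil markers it ranged from 35.999 to 74.2 in BDL and 16.9 to 60.5 in MDR, and of the 5 tested 0 were called higher and 1 lower. Of smaller lists with summed FPKM of at most 23.97 in both groups, 2 of 4 lymphocyte, 1 of 1 platelet and 1 of 3 mesothelial markers tested were called higher. The sum of 12 hepatocyte markers ranged from 55485 to 59829 in BDL and 41516 to 49148 in MDR, with 1 called lower. No marker of these lists was at 0 in all libraries, and BDL replicate 1 had the lowest sum of BDL for endothelial, stellate, macrophage, cholangiocyte and neutrophil markers. Of 25 listed secreted hepatocyte proteins that are not members, 8 fell and 0 rose, with a median difference of -0.33. Of 21 acute phase genes 14 fell and 0 rose (median -1.33). The lists are not separate: Cp, Hp, Hpx, Itih3 and Itih4, all called lower, are counted in both. Vtn and Ahsg, among the secreted proteins, are also counted with the other complement and the other coagulation genes. Leaving out 1 library gave 1 (without MDR replicate 2) to 9 secreted proteins lower and 5 (without MDR replicate 2 or 3) to 17 acute phase genes lower. These counts were 5 and 9 without BDL replicate 1, 3 and 7 without BDL replicate 2, and 4 and 8 without MDR replicate 1. In MDR_H against BDL_H, 4 and 12 fell and 0 rose, beside 0.935% of all genes lower and 7.36% higher. Saa1 was at 2292, 964 and 1146 FPKM in BDL and 177, 120.1 and 148 in MDR. Stat3, which carries the interleukin-6 signal, and Socs3, which restrains it, fell (-0.58 ± 0.17 and -1.98 ± 0.48), Cebpb fell (-1.22 ± 0.32) and Cebpa rose (0.90 ± 0.14). The part of these shifts in the complement and coagulation differences was not tested.

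The second question was what HDCA changed within each model. No member passed the test in either (limma, 0 of 36), as was the case for all genes (0% of 10805). At an unadjusted p under 0.05 there were 0 members in BDL, against 2.25% of all genes, and 0 in MDR, against 0.565%. With recovered reads and limma-voom the count was again 0 in both, and no member was called under any of the settings tried. In BDL the standard errors of the members ran from 0.11 to 0.54 with a median of 0.16, so small differences were not detectable for most members.

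In BDL the log2 difference with HDCA was below 0 for 29 members and above 0 for 7, with a median of -0.10 against 0.03 over all genes. Without BDL_H replicate 2, the library with high fibrinogen, the split was 19 and 17, and without BDL replicate 3 it was 25 and 11. The smallest p belonged to Masp1, at 10.4, 19.4 and 20.3 FPKM without and 19.7, 23.4 and 21.1 with HDCA (0.39 ± 0.21, SE; limma adjusted p = 1.00). Those groups overlapped, and BDL replicate 1 was the low library. F9 followed, at 116, 64.4 and 72.1 and 69.1, 61.1 and 63.8 (-0.33 ± 0.18; adjusted p = 1.00), with BDL replicate 1 high and the other 5 libraries between 61.1 and 72.1. In 3 members, all lower with HDCA, the groups did not overlap (8.33%, against 5.03% of all genes, and 1.59% for lower alone), and 0 members were wholly higher (3.43% of all genes). These were Cfi (-0.20 ± 0.13), Serping1 (-0.22 ± 0.14) and Serpinf2 (-0.13 ± 0.11), and the differences were within 2 SE.

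In MDR the difference with HDCA was above 0 for 25 members and below 0 for 11, with a median of 0.05 against -0.04 over all genes. Without MDR replicate 2 the split was 20 and 16, with a median of 0.003 against -0.002, and without MDR_H replicate 2 it was 21 and 15. Without MDR replicate 1, the one with Y-linked reads, it was 30 and 6. Mbl2 had the smallest p, at 174, 207 and 239 FPKM without and 246, 308 and 342 with HDCA (0.53 ± 0.28, SE; limma adjusted p = 1.00). Each treated library was above each untreated one. The same was true of F9 (75.4, 79.2 and 78.2 and 95.0, 82.4 and 80.2; 0.14 ± 0.18) and F13b (86.7, 86.0 and 85.7 and 91.1, 88.2 and 91.5; 0.07 ± 0.14), which makes 3 members without overlap (8.33%, against 5.95% of all genes, and 1.35% for higher alone), while 0 members were wholly lower (4.6% of all genes). For the C3 and fibrinogen genes the intervals were wide: -0.24 to 0.54 for C3 and -0.62 to 1.00 for Fga. Of the 25 listed secreted hepatocyte proteins that are not members, 21 had a difference with HDCA below 0 in BDL and 21 had one above 0 in MDR.

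Whether HDCA acted differently in the 2 models was tested as the difference of the effects (BDL minus MDR). It called 0 members and 0% of all genes, and at an unadjusted p under 0.05 there were 0 members, against 1.85% of all genes. Mbl2 had the smallest p (-0.83 ± 0.40, SE; limma adjusted p = 1.00), followed by F9 (-0.47 ± 0.26; adjusted p = 1.00). The Mbl2 difference with HDCA was -0.30 ± 0.28 in BDL, where BDL_H replicate 2 was the low library, and 0.53 ± 0.28 in MDR. The doses were alike at 100 mg/kg, but the days of treatment were not (4 and 21).

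**Figure D5:**
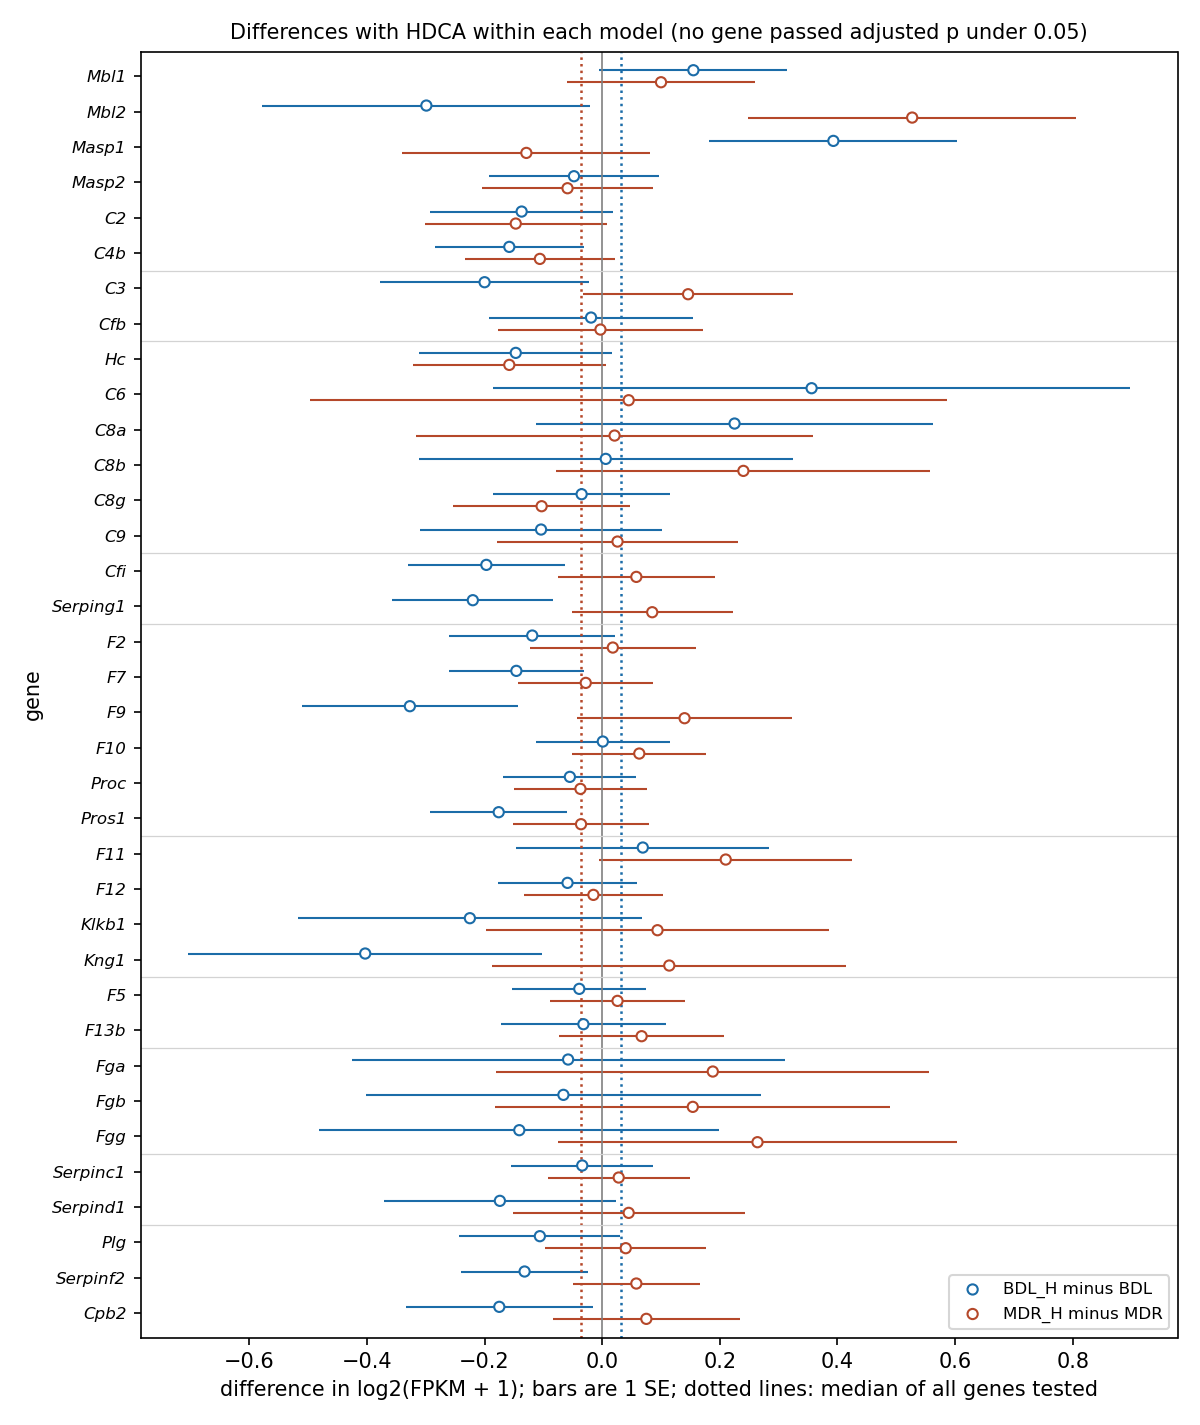
Difference in log2(FPKM + 1) with HDCA for each of the 36 genes in BDL (blue) and in MDR (orange), with bars of 1 SE and dotted lines at the median of all genes tested (0.03 and -0.04). No point is filled, since no gene passed an adjusted p under 0.05, and most points lie within 1 SE of 0.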

How the data were processed

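The authors deposited 1 table of FPKM values for 16970 gene symbols in 12 liver libraries. Per the submitters' processing notes the reads went through DESeq2 1.20.0, featureCounts 1.5.0-p3, fastp, CASAVA 1.8 and HISAT2 2.0.5, named without order, on build GRCm38 (mm10). Neither the order of steps nor the strand setting is given in the sources used here. RNA was extracted with TRIzol, per the labels' protocols. Within 0.02 of a read, whole reads were recovered for 16968 genes (99.99%). limma-voom on them called 1627 genes in MDR against BDL, 690 in MDR_H against BDL_H and 0 in each HDCA comparison.

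Groups were taken from the sample titles. Values were analysed as log2(FPKM + 1), a scale that understates changes of low genes. A gene was tested where 3 or more libraries had 1 FPKM or more, which held for 10805 genes and all 36 members. limma 3.58.1 (R 4.3.3) with trend was fitted to the 4 group means, which leaves 8 residual degrees of freedom. Tests were two-sided, with Benjamini-Hochberg adjustment over all genes tested and calls at an adjusted p under 0.05. The comparisons of the models share libraries with the HDCA comparisons. Members and lists were chosen with earlier results of these data known, so lists are described by counts and medians. Named are all members, with full statistics for the called ones with the smallest p in each role (else the smallest p), and, of the other lists, called genes with the largest differences. The other genes given by library (Elovl3, Cyp4a12a, Saa1, Saa2, Saa3, Orm2, Apcs, Itih3, Itih4, Hp, Serpina3n, Serpina3m, Fgl1, Lcn2, Ggcx and Vkorc1) were chosen after their values were seen. Between MDR and MDR_H, deviations of same-numbered libraries correlated at 0.312 to 0.548, and between BDL and BDL_H at -0.43 to 0.431. The main fit held no term for pairs, so its differences, errors and p-values treat the libraries as unpaired. Replicate numbers entered only in the replicate block, an alternative setting. MDR replicate 1 had a Y-linked sum of 20.1 FPKM and MDR_H replicate 1 of 0.016. The code was tested on simulated data. No 2 libraries agreed within counting noise (lowest chi-square per gene 31.6).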

Additional observations from a re-analysis of the deposited data

How the results depend on the processing

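The counts below are of genes, then members, called. For MDR against BDL (1746 and 7) they were 616 genes under a mean FPKM minimum of 5, 941 and 4 with quantile normalization, 1052 genes with median-of-ratios scaling, 4947 and 18 with array weights, 729 genes with only the libraries compared, and 489 (without MDR replicate 2) to 2346 (without BDL_H replicate 2) and 3 to 10 (the same libraries) with 1 library left out. For MDR_H against BDL_H (896 and 2) they were 436 genes under the same minimum, 1 member with quantile normalization and 1 with median-of-ratios scaling, 2750 and 9 with array weights, 542 genes with only the libraries compared, 589 and 1 with the replicate block, and 167 (without MDR_H replicate 2) to 1550 (without BDL replicate 1) and 1 to 5 with 1 library left out. Of the higher and lower calls, 93.4% were higher in MDR against BDL, 63.8% with median-of-ratios scaling and 58.2% with quantile normalization (treated: 88.7, 53.8 and 52.9%). limma-voom called 7 and 2 members. Without both BDL replicate 1 and BDL_H replicate 2, MDR against BDL had 2231 genes and 11 members called. Leaving out MDR replicate 1 as well, chosen after seeing the data, gave 2547 genes and 14 members (1597 and 4 in MDR_H against BDL_H). There F11 was called at -0.36 (adjusted p = 0.0372; 0.06 with all libraries, -0.19 to 0.22 with 1 library left out). The replicate block joined libraries by replicate number, over all 4 groups for comparisons of the models and within each model for HDCA. It gave 1351 genes and 5 members in MDR against BDL and changed no HDCA call. Deviations of same-numbered BDL and MDR libraries correlated at -0.201, -0.149 and -0.244, so shared numbers do not mark pairs there. Array weights called 1 gene for HDCA in BDL; no member was called for HDCA in any setting. The cause of these shifts was not tested. Depth did not limit the members, each with at least 1743 reads.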

Other observations

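Kng1 was not alone in its high level in BDL replicate 1. On chromosome 16 its 4 neighbours that encode secreted liver proteins were high in the same library, a pattern chosen after the values were seen. Set against the mean of BDL replicates 2 and 3, the level in BDL replicate 1 was 1.68 times as high for Ahsg (22892015 to 22899451), 1.92 times for Fetub (22918382 to 22939768), 3.55 times for Hrg (22951072 to 22961659), 1.93 times for Kng2 (22985852 to 23029101) and 2.54 times for Kng1 (23058220 to 23082078), on GRCm38. For all 5 the value was above the highest of the other 11 libraries. Of the genes on either side, the ratio was 0.997 for Tbccd1, 0.65 for Dnajb11, 0.38 for Rfc4 and 0.43 for St6gal1. For Eif4a2 the ratio was 1.40, and its 45.4 FPKM was below the highest of the other 11 libraries (55.5). The median ratio was 0.785 over the 9989 genes at 1 FPKM or more in BDL replicates 2 and 3. Among the 604 genes at 100 FPKM or more in BDL replicates 2 and 3, 13.91% had a ratio of at least 1.5. The high level was not particular to this stretch. Outside it, Fgl1 read 1758 FPKM in BDL replicate 1 against 643 and 691 in replicates 2 and 3. Apcs read 734 against 292 and 304, while Alb was lower, at 29884 against 34756 and 34226. Kng1 and Hrg kept a ratio to each other between 0.89 and 1.28 over the 12 libraries.

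Mbl1 and Mbl2 encode related lectins, and their deviations from group means correlated at 0.12 over the 12 libraries (-0.10 without BDL replicate 1 and BDL_H replicate 2). The ratio of Mbl2 to Mbl1 was 6.54, 6.35 and 6.23 in BDL, 6.82, 2.83 and 5.12 in BDL_H, 2.78, 4.47 and 4.79 in MDR and 4.16, 5.64 and 6.19 in MDR_H. The 3 BDL libraries were all above the 3 MDR libraries. The chains of C8, which join in 1 protein, held less constant ratios than those of fibrinogen: C8a to C8b ranged from 1.02 to 1.81 and C8a to C8g from 1.71 to 3.82, with the lowest value of both in BDL replicate 1. Cfb to C2 ranged from 12.8 to 16.5 in the BDL model and from 10.2 to 12.7 in the MDR groups.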
